A study of Mus musculus with 6 samples.

Results

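Expression of 10 imprinted growth genes was followed in the heart of tail-suspended mice, namely H19, Igf2, Meg3, Dlk1, Peg3, Mest, Plagl1, Grb10, Ndn and Zim1. They were chosen by name, as every non-control probe that the array design assigned to 1 of these 10 genes, out of 24261 gene names on the array. The 10 genes had 26 probes on 35 spots. Of these, 18 probes of 8 genes were bright enough to be tested, which meant a signal well above background on all 3 sham arrays or on all 3 tail-suspension arrays. Dlk1 and Zim1 had no tested probe.

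Messenger RNA of whole cardiac muscle was measured on 6 arrays of 1 colour, 3 from sham mice and 3 from tail-suspended mice. Tail suspension lifts the hindlimbs and is used to mimic microgravity, and the comparison asked how gene expression in the heart differed after it. All animals were male C57BL/6 mice with no genetic change named in the labels. Tail-suspended mice were 10 weeks old at the start and were suspended for 28 days. Sham mice were housed in the same space under like feeding and were not suspended. The labels also give an age of 11 weeks for every mouse, which cannot hold together with that start and that duration, and the study's methods give a slightly younger starting age. The labels do not say that each array came from a separate animal, so the tests measure the spread between these arrays.

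In mammals, imprinted genes are transcribed mainly from the copy inherited from the mother or from the copy inherited from the father, according to methylation marks set in the germ line. Many act on growth before birth and are expressed strongly in the fetal heart and weakly in the adult heart. Igf2, Dlk1, Peg3, Mest, Plagl1 and Ndn are expressed mainly from the paternal copy. H19, Meg3 and Zim1 are expressed mainly from the maternal copy, as is Grb10 in most tissues. H19 shares a locus and its enhancers with Igf2, Meg3 lies beside Dlk1, and Zim1 lies beside Peg3.

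The 6 arrays were alike in quality. The share of probes well above background ranged from 50.9% to 53.4% between arrays, no spot was saturated, and the number of arrays sets the precision. All 6 lay on 1 slide and were scanned in 1 scan. Its first row held all sham arrays with replicate 1 of tail suspension, and its second row held replicates 2 and 3 of tail suspension. With the slide row as a block, the estimate is therefore the difference between tail-suspension replicate 1 and the sham arrays. In that fit H19 and Heyl kept their calls, and the other called genes for which alternatives were run lost theirs, at adjusted p of 0.0556 (Dnmt3a) to 0.296 (Dnmt3l). All 10 cardiomyocyte markers examined were bright enough to be tested, Myh6 and Tnnt2 among them.

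Of the 8 tested genes 3 rose after tail suspension and 1 fell, by the brightest tested probe of each gene. H19, Peg3 and Plagl1 were higher, and Mest was lower. Of all 15180 genes tested in the same way, 21.4% passed the threshold of an adjusted p under 0.05, 10.4% higher and 11% lower. Counted by probe, 11 of the 18 tested probes were called, 9 higher and 2 lower, and 6 of the 9 belonged to H19. The share over all 28030 tested probes was 20.2%, with 10.6% higher and 9.6% lower. The sham and tail-suspension levels did not overlap for 6 of the 8 genes, against 46.9% of all genes tested, and for 14 of the 18 probes, against 43.9% of all probes tested. H19 and Mest, 2 of the 8 genes, were called and changed at least 2-fold, as did 4.73% of all genes tested. The median log2 change of the 8 genes was 0.05, and that of all genes tested was -0.02.

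**Figure D1:**
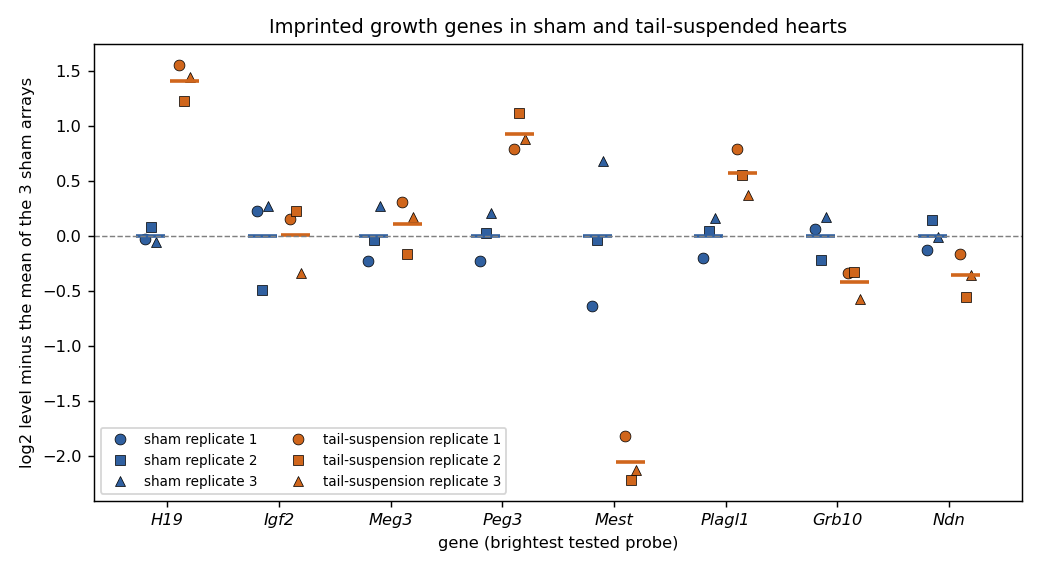
The log2 level of each gene on each array, less the mean of its 3 sham arrays, for the brightest tested probe of 8 genes. Symbols mark the replicates of the sham (blue) and tail-suspension (orange) groups, and short lines mark group means. The tail-suspended arrays lay above every sham array for H19, Peg3 and Plagl1 and below every sham array for Mest, Grb10 and Ndn, while the groups overlapped for Igf2 and Meg3.

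H19, a long noncoding RNA, was higher in tail-suspended hearts on every probe that measured it. The array design annotates an H19 transcript that spans 2585 genomic bases on the minus strand, at chr7:149761435-149764019 of mm9. Its 7 probes lie within 985 bases at the 3′ side of that transcript, do not overlap, and are 0 to 184 bases apart. Their sequences are shown because the agreement between separate stretches of this span is what the H19 result rests on. Exon and intron positions of the probes were not assigned. The sequences are written in lower case in order from the 3′ end of the transcript, each named by its coordinates on the minus strand.
chr7:149761492-149761551: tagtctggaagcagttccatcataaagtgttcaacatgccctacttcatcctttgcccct
chr7:149761693-149761752: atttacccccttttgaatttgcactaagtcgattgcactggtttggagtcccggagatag
chr7:149761756-149761815: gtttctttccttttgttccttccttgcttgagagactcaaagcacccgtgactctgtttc
chr7:149761957-149762016: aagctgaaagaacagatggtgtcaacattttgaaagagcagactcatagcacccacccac
chr7:149762113-149762172: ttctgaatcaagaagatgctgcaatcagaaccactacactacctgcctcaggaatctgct
chr7:149762173-149762232: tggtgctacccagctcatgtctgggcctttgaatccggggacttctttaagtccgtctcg
chr7:149762417-149762476: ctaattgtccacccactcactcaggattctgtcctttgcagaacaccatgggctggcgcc

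The brightest H19 probe, the first of these, gave processed intensities of 1550, 1670 and 1430 in sham hearts, compared with 4910, 4340 and 5030 after tail suspension. As log2 levels, which here are relative to the array's own 75th percentile, these are 2.28, 2.39 and 2.25 in sham hearts and 3.86, 3.53 and 3.75 in tail-suspended hearts. Every tail-suspended array was far above every sham array. The mean rose from 2.31 ± 0.08 to 3.72 ± 0.17 (SD, n = 3 each), a log2 fold change of 1.41 (SE 0.11, adjusted p = 0.00214), or 2.65-fold with a 95% interval of 2.21 to 3.19. In bulk tissue, more H19 per cell and more cells that express it cannot be told apart.

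The other 5 probes that measured H19 rose by 1.33 to 1.98 on the log2 scale. The smallest rise was at chr7:149762113-149762172 (1.33, SE 0.15, adjusted p = 0.00376). The largest was at the directly adjoining probe, chr7:149762173-149762232, whose log2 levels of -1.95, -1.54 and -1.88 in sham hearts compare with 0.39, -0.01 and 0.18 in tail-suspended hearts. That rise was 1.98 (SE 0.15, adjusted p = 0.00211), or 3.94-fold. With normexp background correction that probe was at 1.41. Under the same correction the probes at chr7:149761957-149762016 and chr7:149762113-149762172 were at 0.91 and 0.94, against 1.41 and 1.33 in the main fit. These 3 probes stayed past the threshold. All 6 probes had no overlap between the groups, and they were fitted on the same 6 arrays, so they are not separate replicates. The probe nearest the 5′ end, at chr7:149762417-149762476, was well above background on no array. H19 passed the threshold under all 19 alternatives, with log2 changes of 1.23 to 1.55 for its brightest probe. The value was 1.55 (adjusted p = 0.0204) with the slide row as a block.

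**Figure D2:**
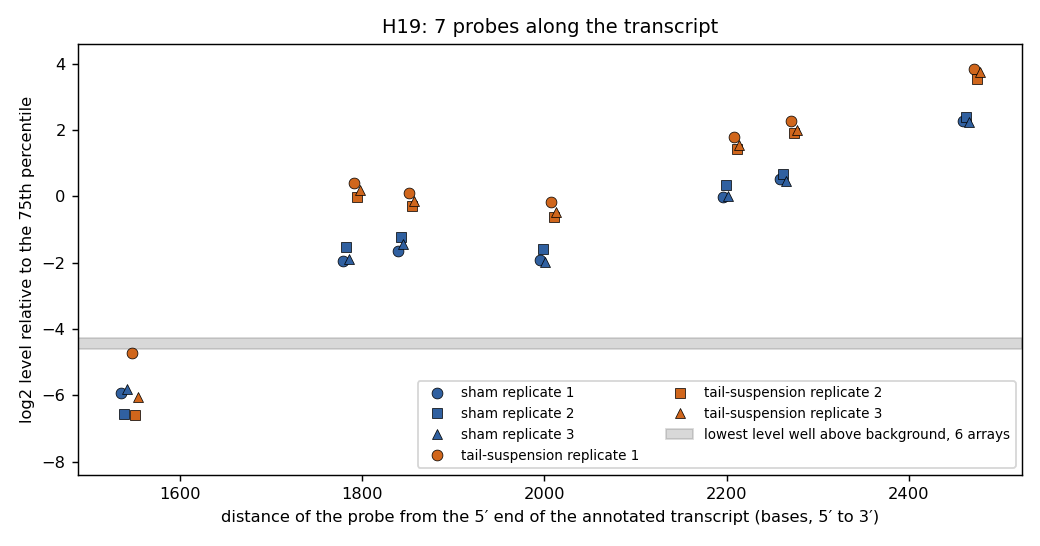
Log2 level of the 7 H19 probes on each of the 6 arrays, placed by their genomic distance in bases from the 5′ end of the annotated transcript. Symbols mark replicates, and the grey band spans the lowest level well above background on the 6 arrays. For 6 probes all tail-suspension arrays (orange) lay above all sham arrays (blue), and the probe nearest the 5′ end lay below the band on every array; levels of different probes are not comparable.

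H19 also carries a microRNA, miR-675, and an intron of Mest carries miR-335. The array measured neither, so only their host transcripts have values here. Their mature sequences from RefSeq (GRCm38.p6) are shown because the host transcripts changed most among these genes, with the seed (bases 2 to 8) in capitals. No seed was shared among the 4.
mmu-miR-675-5p: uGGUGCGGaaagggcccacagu
mmu-miR-675-3p: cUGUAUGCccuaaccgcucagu
mmu-miR-335-5p: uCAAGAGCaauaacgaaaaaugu
mmu-miR-335-3p: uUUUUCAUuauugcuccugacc

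Igf2, the fetal growth factor encoded beside H19, was dim and did not pass the threshold. Its single probe at chr7:149839661-149839720 gave log2 levels of -3.61, -4.32 and -3.56 in sham hearts and -3.68, -3.61 and -4.17 in tail-suspended hearts. The groups overlapped, and the probe was well above background on 2 of 3 sham arrays and on all 3 tail-suspension arrays. The log2 change was 0.0047 (SE 0.24, adjusted p = 0.99), with a 95% interval of -0.58 to 0.59, which lies wholly below the interval of the brightest H19 probe (1.14 to 1.67). A change of Igf2 of up to 1.5-fold in either direction lies within that interval. The sign of this small value changed with the processing.

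Receptors and binding proteins of the insulin-like growth factors were examined beside Igf2. Of 11 tested genes in this list, 5 rose and none fell, a share of 45.5% called against 21.4% of all genes tested, or 10.4% in that direction. The median log2 change of the list was 0.47. Igfbp3, a binding protein that carries these factors in the circulation, rose most. Its log2 levels were -0.17, -0.04 and 0.31 in sham hearts and 1.5, 1.24 and 1.70 in tail-suspended hearts, a change of 1.45 (SE 0.17, adjusted p = 0.00457). Irs2, the adaptor downstream of these receptors, rose by 1.11 (SE 0.25, adjusted p = 0.0276). The receptor genes Igf1r and Insr rose by 0.78 (SE 0.20, adjusted p = 0.0381) and 0.69 (SE 0.099, adjusted p = 0.00801), and Igfbp4 rose by 0.49 (SE 0.10, adjusted p = 0.0221). The 2 dimmer Insr probes, at 0.33 and 0.46, missed the threshold (adjusted p = 0.118 and 0.0502). Igf2r, the receptor that clears Igf2 and is itself maternally expressed, changed by 0.23 (SE 0.11, adjusted p = 0.164). Leaving out 1 array at a time ended the call of Irs2 for 4 arrays and of Igf1r for 5 (highest adjusted p = 0.0813 and 0.108).

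Mest, an enzyme-like protein of the fetal mesoderm, fell most among the 10 genes. The probe at chr6:30698279-30698338, printed on 10 spots of each array, gave log2 levels of -0.83, -0.23 and 0.49 in sham hearts and -2.01, -2.41 and -2.32 in tail-suspended hearts. The sham arrays were spread widely, yet the lowest of them lay above every tail-suspended array. The mean fell by 2.06 on the log2 scale (SE 0.32, adjusted p = 0.01), from -0.19 ± 0.66 to -2.25 ± 0.21 (SD, n = 3 each), which is 4.16-fold lower. A second probe at chr6:30697385-30697444 fell by 1.74 (SE 0.26, adjusted p = 0.00917), or 3.33-fold.

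The other Mest probe, at chr6:30692160-30692219, was well above background on 2 sham arrays and on no tail-suspension array. It was not tested, and its sham mean was at least 1.26-fold higher than the level that the tail-suspension arrays could have shown. Copg2, which lies next to Mest on the opposite strand and is maternally expressed in some tissues, changed by -0.28 (SE 0.17, adjusted p = 0.264). The Mest call kept its direction under all 19 alternatives, with log2 changes of -2.41 to -1.47; with normexp background correction the value was -1.47, and that of the probe at chr6:30697385-30697444 was -0.91. It was lost under the methods' t-test (adjusted p = 0.0574) and with the slide row as a block (-1.82, adjusted p = 0.119).

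Some genes of dividing cells and of fibroblasts were lower in tail-suspended hearts beside Mest. The mean level of 3 tested proliferation genes was -2.01, -1.49 and -0.81 on sham replicates 1, 2 and 3, and -2.82, -2.92 and -2.04 on the tail-suspension arrays. Mest shared the order of the sham arrays but not that of the tail-suspension arrays. Of these genes only Ccna2, the cyclin of DNA replication, passed the threshold, or 33.3% called against 21.4% of all genes tested. Ccna2 changed by -1.78 (SE 0.35, adjusted p = 0.0191), or by -0.78 with normexp background correction. It was not well above background on all 6 arrays, so -1.78 is a fitted value and not a measured size. Mki67 was at -0.83 (adjusted p = 0.217). Of the 8 proliferation genes on the array, 3 were above background on no array. The mean of 10 fibroblast markers was 2.77 to 3.03 in sham hearts and 2.10 to 2.63 in tail-suspended hearts, with Col3a1 (-1.88, adjusted p = 0.0174) and Thy1 (-0.93, adjusted p = 0.00396) past the threshold. That is 20% of the fibroblast list, against 21.4% of all genes tested, and 2 of the 10 had higher values after tail suspension. None of the 10 was below background on every array. The part of dividing cells and of fibroblasts in the fall of Mest was not tested.

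RefSeq places a Mest promoter at chr6:30737800-30738049 of GRCm38.p6 (the 250 bases before the start, plus strand), shown because Mest fell most and its promoter is a known imprinted region. Methylated TGCCGC is the sequence that the imprint-keeping protein ZFP57 binds, and both copies in this run, which read GCGGCA on this strand, are in capitals.
Mest promoter: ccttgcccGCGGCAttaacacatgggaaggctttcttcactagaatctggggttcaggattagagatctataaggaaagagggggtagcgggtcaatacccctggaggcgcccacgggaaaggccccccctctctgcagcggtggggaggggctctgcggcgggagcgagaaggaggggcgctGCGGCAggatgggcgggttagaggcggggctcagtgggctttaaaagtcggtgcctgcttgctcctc
Searched on both strands, TGCCGC was present in 11.6% of 32851 promoter windows of 300 bases. It was present in 7 of 16 such windows of these genes, belonging to 6 of 9 genes; 2 of the 7 are Mest windows that start 3 bases apart and hold the same copies. The motif contains a CpG, and these 16 windows held a median of 13 CpG against 7 in all windows. The array held no methylation measurement, and a match says only that the letters are present.

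Peg3, a paternally expressed zinc finger protein, rose at a low level. The probe at chr7:6658774-6658833 gave log2 levels of -3.45, -3.19 and -3.01 in sham hearts and -2.43, -2.10 and -2.34 in tail-suspended hearts. All tail-suspended arrays were above all sham arrays. The change was 0.93 (SE 0.15, adjusted p = 0.0104), or 1.90-fold with a 95% interval of 1.49 to 2.42. A second probe, at chr7:6661407-6661466, was well above background only on tail-suspension replicate 3, so it could not test the rise. The call was lost with normexp background correction (0.28, adjusted p = 0.126) and with the slide row as a block (0.78, adjusted p = 0.126).

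Zim1, the zinc finger gene beside Peg3, could not be measured. Its probes, at chr7:6628222-6628281 and chr7:6628742-6628801, were not well above background on any array. Ndn, which encodes necdin, a protein that restrains cell division, was at -0.85, -0.57 and -0.73 in sham hearts and at -0.88, -1.27 and -1.07 in tail-suspended hearts. The groups did not overlap, but sham replicate 1 and tail-suspension replicate 1 lay side by side. The change of -0.36 (SE 0.13) missed the threshold (adjusted p = 0.098).

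Plagl1, a paternally expressed zinc finger transcription factor that binds promoters of other imprinted genes, gave different answers by probe. The brightest, at chr10:12850832-12850891, had log2 levels of 0.75, 1.00 and 1.12 in sham hearts and 1.74, 1.51 and 1.33 in tail-suspended hearts, with a rise of 0.57 (SE 0.15, adjusted p = 0.0389). The probe at chr10:12851280-12851339 rose by 0.55 (SE 0.13, adjusted p = 0.03). These probes share a run of 26 bases although their coordinates do not overlap, so they are not independent of each other. The probe at chr10:12848421-12848480 changed by 0.20 (SE 0.18, adjusted p = 0.45) with overlapping groups. The probe at chr10:12848851-12848910 lay lower in tail-suspended hearts, by -0.34 (SE 0.13, adjusted p = 0.115). The Plagl1 call was the least stable of the 4: it was lost under 11 of 19 alternatives, among them each of the 6 arrays left out in turn, when the adjusted p was 0.0517 to 0.106, and the mean over its 4 probes.

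**Figure D3:**
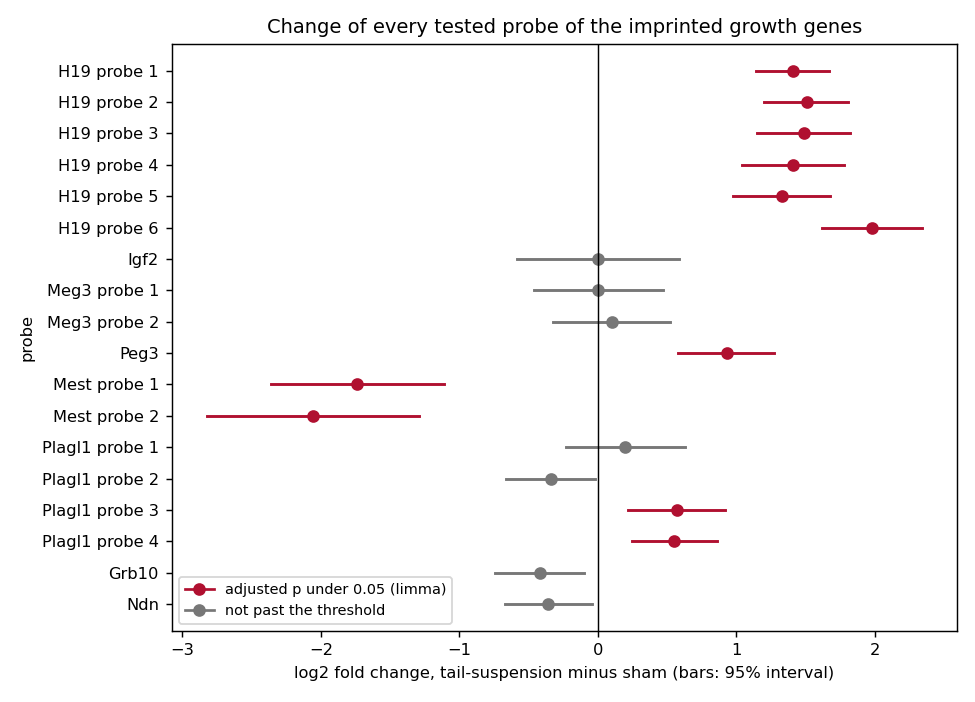
Log2 fold change of the 18 tested probes, tail-suspension minus sham, as points with 95% intervals from the fit; red marks an adjusted p under 0.05. Probes of a gene are numbered by increasing coordinate among those tested. The 6 H19 probes lie at 1.33 to 1.98 and the 2 Mest probes at -2.06 and -1.74, whereas the 4 Plagl1 probes lie on both sides of 0.

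Grb10, an adaptor that binds insulin and insulin-like growth factor receptors and restrains their signal, was lower without passing the threshold. Its probe at chr11:11833165-11833224 gave log2 levels of -0.38, -0.66 and -0.27 in sham hearts and -0.78, -0.77 and -1.01 in tail-suspended hearts. The groups did not overlap. The change was -0.42 (SE 0.13, adjusted p = 0.0672). It passed with quantile normalization (-0.44, adjusted p = 0.0499) and on the authors' log2 values (-0.39, adjusted p = 0.0485).

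Meg3, a maternally expressed noncoding RNA, was well measured and did not pass the threshold. The brightest probe, at chr12:110809678-110809737, gave log2 levels of 1.74, 1.93 and 2.24 in sham hearts and 2.28, 1.80 and 2.14 in tail-suspended hearts. The groups overlapped, and the change of 0.10 had a 95% interval of -0.32 to 0.52 (SE 0.18, adjusted p = 0.699). The probe at chr12:110782745-110782804 changed by 0.004 (SE 0.19, adjusted p = 0.99). The remaining probe, at chr12:110799558-110799617, was well above background only on sham replicate 3.

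Dlk1, a membrane protein related to the Notch ligands that is encoded beside Meg3, was at the edge of detection. Its probe at chr12:110698721-110698781 was well above background on sham replicate 3 alone, and its probe at chr12:110698502-110698561 on none. Mirg, another noncoding RNA downstream of Meg3, was at -0.81 (SE 0.35, adjusted p = 0.142) by its brighter probe, and it passed only when sham replicate 1 was left out (adjusted p = 0.0195). Dio3os, transcribed at the far end of this imprinted region and in no list here, fell by 1.93 (SE 0.24, adjusted p = 0.00528); it was named after its value was seen. Rian, which lies between Meg3 and Mirg, is not a name on the array.

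In the Notch pathway, in which Dlk1 is a ligand-like member, the share called was near that of all genes. Of 13 tested genes 1 rose and 2 fell, or 23.1% called against 21.4% of all genes tested, with a median log2 change of 0.10. Heyl, a target repressor of Notch, had log2 levels of 1.72, 1.98 and 1.86 in sham hearts and 0.66, 0.91 and 0.64 in tail-suspended hearts and fell by 1.12 (SE 0.12, adjusted p = 0.00319), a call that all 19 alternatives kept. The ligand Dll1 fell by 0.96 (SE 0.17, adjusted p = 0.0137), and the target Hey1 rose by 0.56 (SE 0.098, adjusted p = 0.0145). The Hey1 call was lost without sham replicate 2 or without tail-suspension replicate 3 (highest adjusted p = 0.0616).

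Across 33 other imprinted genes that could be tested, the share called was close to the background. Of them 3 rose and 5 fell, or 24.2% called against 21.4% of all genes tested, and the median log2 change was -0.03. Ascl2, 1 of the 3, was tested only through the tail-suspension arrays. Of 21 genes listed as mainly maternally expressed 1 rose and 4 fell, and of 12 listed as mainly paternally expressed 2 rose and 1 fell. The array did not measure which copy was expressed in these hearts. Gatm, an enzyme of creatine synthesis, fell. Its log2 levels were -2.82, -2.74 and -2.72 in sham hearts and -3.79, -4.98 and -4.30 in tail-suspended hearts, where it was well above background on 1 array. The fitted change was -1.60 (SE 0.28, adjusted p = 0.0139), or -0.69 with normexp background correction (adjusted p = 0.00477), and the call was lost without sham replicate 2 (adjusted p = 0.0542).

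Nap1l5, a paternally expressed histone chaperone-like gene, rose by 1.18 (SE 0.21, adjusted p = 0.0142) from levels of -3.05, -3.0 and -3.69 to -2.21, -2.14 and -1.84, and by 0.38 with normexp background correction (adjusted p = 0.0253). The splicing factor gene Zrsr1 rose by 0.91 (SE 0.16, adjusted p = 0.0135), with a lost call without sham replicate 2 (adjusted p = 0.0567). Commd1, a gene of the maternal list within which Zrsr1 lies, fell by 0.43 (SE 0.089, adjusted p = 0.0232). Cdkn1c, an inhibitor of cell division and a growth restrainer, fell by 0.55 (SE 0.12, adjusted p = 0.0276) from 2.57 ± 0.21 to 2.02 ± 0.03 (SD, n = 3 each). Asb4, of a family of ubiquitin ligase subunits, and Mcts2, a retrogene of a translation factor, fell by 0.79 (SE 0.18, adjusted p = 0.0297) and 0.45 (SE 0.11, adjusted p = 0.0331).

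The smaller of these changes were the less stable. With 1 array left out in turn, the call was lost for 5 arrays in Cdkn1c and for 4 in each of Asb4, Mcts2 and Commd1, at adjusted p of up to 0.106. Ascl2, a placental transcription factor, was the only gene of the maternal list counted as higher. It was not well above background in sham hearts and was tested only through the tail-suspension arrays. Its adjusted p (0.018) therefore rests on sham values without a measured level. The tail-suspension mean was at least 2.48-fold higher than the level that the sham arrays could have shown. Ascl2 was named after its value was seen.

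**Figure D4:**
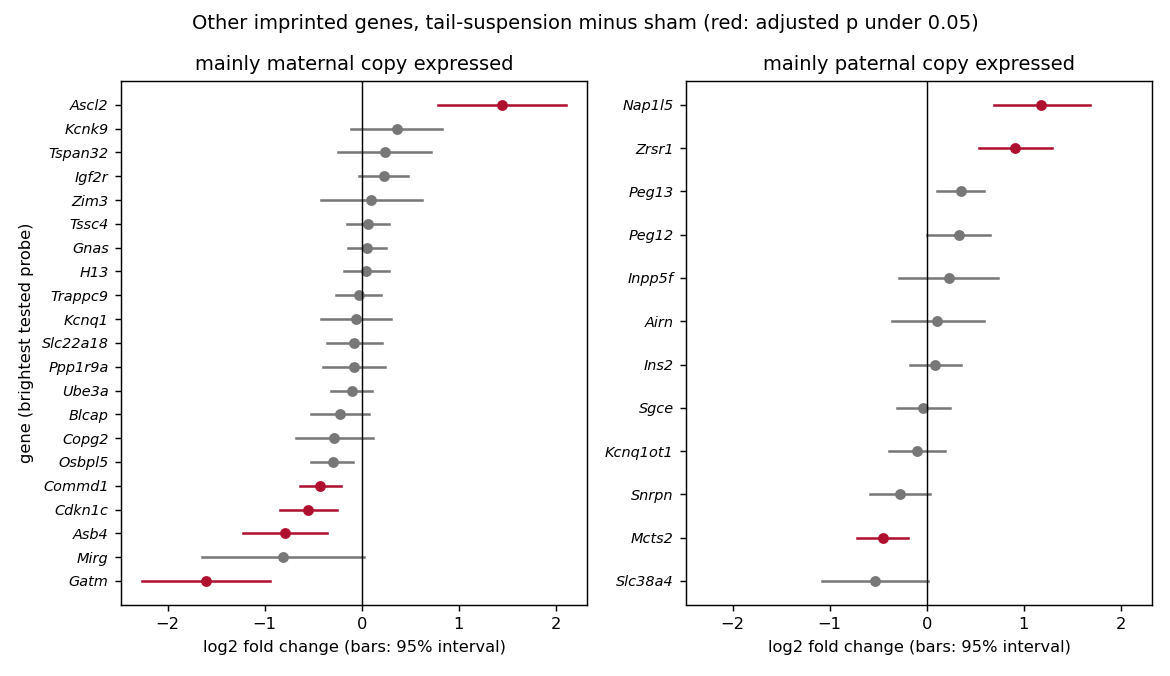
Log2 fold change of 33 other imprinted genes with 95% intervals, by the brightest tested probe. Of these, 21 are listed as mainly expressed from the maternal copy (left) and 12 from the paternal copy (right). Red marks an adjusted p under 0.05. Called genes lie on both sides of 0 in both panels. The points of Ascl2, dim on every sham array, and of Gatm, well above background on 1 tail-suspension array, are fitted values and not measured sizes.

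Among 13 tested genes of imprint maintenance and DNA methylation, none rose and 3 fell, or 23.1% called against 21.4% of all genes tested, with a median log2 change of -0.09. Dnmt3a, the methyltransferase that sets new methylation, had log2 levels of 2.77, 2.86 and 2.84 in sham hearts and 2.10, 2.09 and 2.10 in tail-suspended hearts. It fell by 0.73 (SE 0.079, adjusted p = 0.00368), with no overlap and little spread in either group. Its partner Dnmt3l fell by 0.40 (SE 0.11, adjusted p = 0.0468) and Zfp57 by 0.37 (SE 0.10, adjusted p = 0.0499). Each of these last 2 calls was lost with any of 5 arrays left out, at adjusted p of up to 0.134 and 0.146. Of the 19 alternatives, 11 ended the Dnmt3l call and 12 the Zfp57 call. Normexp background correction was among them for both (adjusted p = 0.0595 and 0.0802). Dnmt1, which copies methylation at cell division, changed by 0.05 (SE 0.13, adjusted p = 0.80).

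The genes nearest to the called members on the chromosome were looked up as well. Of 3 tested genes on each side, 1 of 6 passed beside H19, 1 of 6 beside Mest, 0 of 6 beside Peg3 and 0 of 6 beside Plagl1, while 21.4% of all genes tested passed. Beside H19 it was Gm14492 (-1.26, SE 0.11, adjusted p = 0.00227), and beside Mest it was Tsga14 (-0.47, SE 0.13, adjusted p = 0.0431). These genes were found by their order in RefSeq and were named after their values were seen. Ins2 and Mrpl23, which flank the H19 and Igf2 pair, were at 0.09 (adjusted p = 0.593) and 0.08 (adjusted p = 0.50).

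Genes with the pattern most like each called member over the 6 arrays were found by the root mean square difference between log2 levels centred on their own means, among 15165 genes. For H19 they were Neat1, a noncoding RNA that builds nuclear paraspeckles (0.087), the interferon-inducible Ifi204 (0.092) and BC019489 (0.094). For Mest they were Sez6l2 (0.16), the stem cell factor receptor gene Kit (0.20) and Dio3os (0.25). For Peg3 they were the sodium channel gene Scn3a (0.057), Pthlh (0.074) and Izumo4 (0.088). For Plagl1 they were B430105G09Rik (0.057), Zfp941 (0.059) and B230303O12Rik (0.070). These values are a description with no test.

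Markers of the cell types that whole heart tissue can hold were read beside these genes, against 21.4% of all genes called. Of 10 cardiomyocyte markers 1 fell and none rose, and their mean level was 8.30 to 8.45 in sham hearts and 8.25 to 8.30 in tail-suspended hearts. Of 8 endothelial markers 4 fell, Kdr by 0.55 (adjusted p = 0.0162). The mean of 6 erythroid markers was 5.0 to 5.75 in sham hearts and 3.40 to 4.84 in tail-suspended hearts, with 1 of 6 past the threshold. Among 8 tested leukocyte markers, changes past the threshold went both ways: the neutrophil genes S100a8 and S100a9 rose by 4.80 (SE 0.65, adjusted p = 0.00706) and 4.61 (SE 0.61, adjusted p = 0.00658), and the B cell gene Cd79a fell by 0.87 (adjusted p = 0.0193). Of 10 skeletal muscle markers 7 were above background on no array, and Lep and Ucp1 of the adipocyte list likewise. Of 8 adipocyte markers on the array 2 were tested, and neither passed the threshold. Both had higher values after tail suspension, with a mean of 0.52 to 2.64 in sham hearts and 2.51 to 4.31 in tail-suspended hearts. The part of these cell types in the changes of H19, Peg3, Plagl1 and Mest was not tested.

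**Figure D5:**
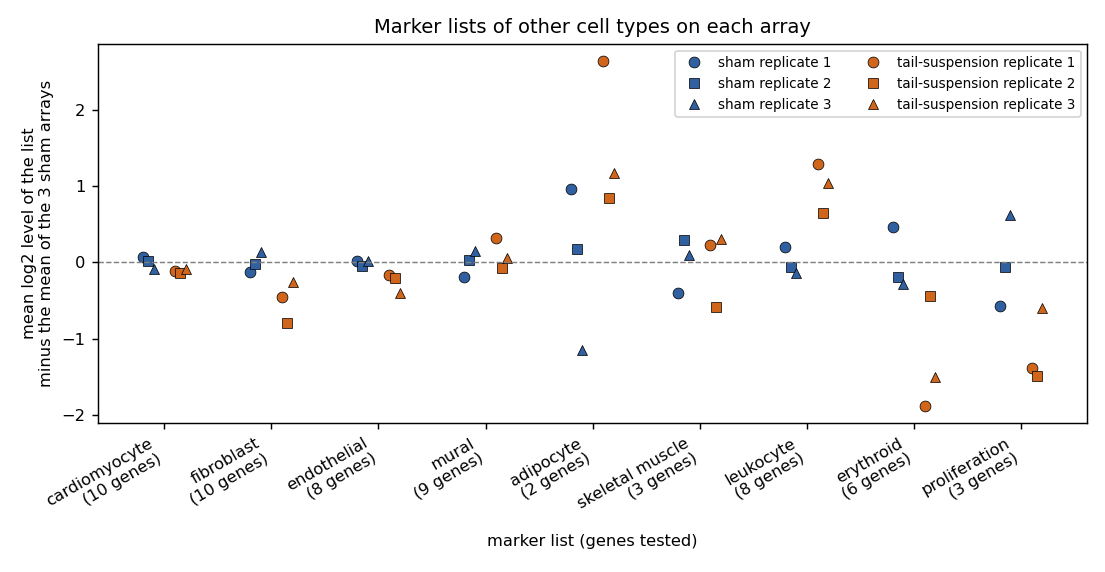
Mean log2 level of 9 marker lists on each array, less the mean of the 3 sham arrays, with the number of tested genes under each name. Symbols mark the replicates of the sham (blue) and tail-suspension (orange) groups. The lists for fibroblast, endothelial, erythroid and proliferating cells lay below every sham array in all 3 tail-suspended arrays. The mean of the leukocyte list lay above, and the adipocyte, mural and skeletal muscle lists overlapped. The leukocyte list holds S100a8 and S100a9, its median log2 change was 0.16, and its called genes were 3 higher and 2 lower.

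Single-gene permutation adds no resolution at this size. With 20 arrangements of 6 arrays the smallest two-sided p of an exact permutation test is 0.1, and H19, Mest, Peg3, Plagl1, Grb10 and Ndn all reached it. Meg3 was at p = 0.7 and Igf2 at p = 1 in the same exact test.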

How the data were processed

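Labelled heart RNA was hybridised to 6 Agilent arrays of 1 colour. The authors deposited scanner output in which Agilent Feature Extraction 10.7.1.1 gave each spot a mean, a background and a processed intensity, with background flags per the file headers, and a table of log2 values that were quantile normalized. Here log2 processed intensity less the 75th percentile of each array was used, without control spots and outlier flags, averaged over spots of a probe. Being above background required the scanner flag on 50% or more of a probe's spots. Probes above background on all arrays of either group were tested in R 4.3.3 by limma 3.58.1 without covariates (lmFit, eBayes) and Benjamini-Hochberg adjustment over 28030 probes, with a threshold of 0.05. Intervals are 95% intervals of that fit.

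Each gene was represented by its tested probe of highest mean level, and every probe of the 10 genes is given. Named beyond these are up to 8 other imprinted genes and up to 3 of each further list. They were taken by size of change among genes past the threshold without overlap and above background in both groups. Igf2r, Igf1r, Insr, Cdkn1c, Rian and Mirg were named as genes around a member, whatever their result. The 3 genes most like each called member are also given. Some further genes, Igfbp4, Dnmt1, Mki67 and Copg2 among them, were named outside these rules. The genes and lists were chosen with earlier results of these data known. Gene names are those of the array design, with names that are no gene symbol left out, and its coordinates are on mm9. RefSeq tables of GRCm38.p6 gave gene order (14153 of 15180 tested names matched), promoters and microRNAs, and H19 was without a promoter entry.

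On simulated data, 67% of probes changed by 1 and 94% of probes changed by 2 on the log2 scale were called, among 28002 probes of which 200 were changed. That is a far smaller share than the 20.2% of probes called in the real data, and the simulated noise was independent between probes. The rates hold for that setting only. The alternatives changed the background (normexp, offset 50), the scaling (quantile normalization, a percentile over detected probes, the authors' log2 values), the filter (none, or all 6 arrays), the outlier flags (kept), the variance model (intensity trend with robust eBayes, or array weights), the test (the methods' t-test), the blocks (replicate number, or slide row) and the probe of a gene (mean of all), and left out each array. For 2 groups the study's methods name an unpaired t-test at a p under 0.05 and no adjustment. The Benjamini-Hochberg adjustment of the t-test alternative was added here. The slide could not serve as a block because all arrays shared it. The value of 1 leukocyte marker is not reported here.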

Additional observations from a re-analysis of the deposited data

Results flagged for a closer look

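The second Peg3 probe, at chr7:6661407-6661466, was outside the comparison because it was well above background on no sham array and on 1 of 3 tail-suspension arrays. It showed a signal on a single array, tail-suspension replicate 3, with a log2 level of -2.28, against -6.01 and -6.24 on the other tail-suspension arrays and -6.73, -6.68 and -5.67 on the sham arrays. No other array had a level of this probe well above background, and the probe that was tested lay at -2.34 on that same array. The cause was not tested.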

How the results depend on the processing

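Against 2984 probes higher and 2691 lower, the counts were 1038 and 805 with no filter, 1456 and 1203 with the methods' t-test, 1725 and 1432 with replicate number as a block, 326 and 178 with slide row as a block, 1012 to 2889 and 757 to 2691 with 1 array left out, and 4199 and 4085 with array weights. The 4 imprinted growth genes past the threshold became 2 under the methods' t-test (H19 and Peg3) and 1 with row as a block (H19), and 3 with each array left out. In that t-test 5 of the imprinted growth genes were at an unadjusted p under 0.05, against 36.7% of all genes tested. The 8 other imprinted genes past it became 3 with no filter, 1 with the t-test, 5 with the replicate block and 0 with row as a block in limma. With 1 array left out they became 2 to 8, the lowest without sham replicate 2. In the limma fit with row as a block, 8 of the 33 tested were at an unadjusted p under 0.05, against 21.7% of all genes tested. Correlations between same-numbered arrays were -0.02, -0.018 and 0.05, within the range of differently numbered arrays (-0.081 to 0.10). So few arrays cannot settle whether the replicate numbers pair samples. With replicate number as a block Plagl1 was lost at an adjusted p of 0.0971 in limma, while H19, Peg3 and Mest passed.

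The sign of the log2 change of Igf2 turned under normexp (-0.22), quantile normalization (-0.08), the authors' log2 values (-0.074), and with 1 array left out (-0.24 to 0.18). That of Meg3 turned with 1 array left out (-0.014 to 0.24, and -0.0016 without tail-suspension replicate 1). Neither passed the threshold in any setting. No other named gene changed direction under any alternative run. The median change of all probes stayed within -0.064 and 0.0025 in every setting. The cause of the lost calls was not tested. Precision is set by 3 arrays a group, and probes under background (intensity of about 14 to 19.5 at the limit) have no measured level.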
